A study of Mus musculus with 16 samples.

Results

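The chromatin around 5 genes of fatty acid synthesis and desaturation, Acly, Acaca, Fasn, Scd1 and Scd2, was examined in 3T3-L1 adipocytes. The members are the listed peaks whose centre lies in 1 of 4 windows of the mouse genome build mm9: chromosome 11 from 100300000 to 100430000 for Acly, from 83900000 to 84260000 for Acaca and from 120620000 to 120730000 for Fasn, and chromosome 19 from 44320000 to 44530000 for Scd1 and Scd2 together. They comprise 44 of the 30588 PPARγ peaks and 41 of the 30519 C/EBPα peaks in the deposited lists. Within the windows, peaks were taken by position alone, while the windows themselves were set with earlier results of these data known. Peaks were assigned to a window and not to a gene, and each window also spans neighbouring genes. Gene starts and exons were not placed in mm9 here, so peaks are given by position.

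The measurements came from chromatin immunoprecipitation with sequencing, which counts the fragments of DNA that an antibody against a protein pulls down at each place. The 3T3-L1 line, derived from mouse fibroblasts, can be turned into fat cells by hormonal induction. All cells were at day 7 of differentiation and received, for 1 h, either 0.1% DMSO, the solvent, or 1 µM rosiglitazone, an agonist drug of PPARγ, in 0.1% DMSO. The antibodies used here were against PPARγ, C/EBPα, MED1 and CBP. The labels give 2 PPARγ samples per treatment and 1 for each of the others, but the tables hold 1 column per factor and treatment. Every difference between treatments therefore lacks a replicate check.

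PPARγ, a nuclear receptor, directs the formation of fat cells, and C/EBPα is a leucine zipper factor that binds with it at many fat cell genes. MED1 is the Mediator subunit that contacts nuclear receptors, and CBP acetylates histones at enhancers. De novo lipogenesis turns citrate into fatty acids in the cytosol: ATP citrate lyase (Acly) makes acetyl-CoA, acetyl-CoA carboxylase (Acaca) makes malonyl-CoA, fatty acid synthase (Fasn) builds palmitate, and the stearoyl-CoA desaturases (Scd1, Scd2) put a double bond into saturated acyl chains. In fat and liver these genes are also known targets of the insulin-responsive factor SREBP-1c and the glucose-responsive factor ChREBP.

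RefSeq promoter sequences, from 250 bases before to 50 after a gene's start in build GRCm38.p6, were given for 3 of the 5 genes, Fasn, Acly and Acaca. Those of Fasn and Acly are shown because the summed PPARγ and MED1 tags of both windows had ratio intervals above 1 after rosiglitazone, although that of MED1 in the Acly window includes 1 without its highest-scoring peak (1.50, 0.873 to 2.53). Both lie on the minus strand of chromosome 11, the Fasn promoter from 120824498 to 120824797 and the Acly promoter from 100527951 to 100528250, in coordinates that are not those of the peaks. Capitals mark every match, on either strand, to the motifs searched.
Fasn promoter: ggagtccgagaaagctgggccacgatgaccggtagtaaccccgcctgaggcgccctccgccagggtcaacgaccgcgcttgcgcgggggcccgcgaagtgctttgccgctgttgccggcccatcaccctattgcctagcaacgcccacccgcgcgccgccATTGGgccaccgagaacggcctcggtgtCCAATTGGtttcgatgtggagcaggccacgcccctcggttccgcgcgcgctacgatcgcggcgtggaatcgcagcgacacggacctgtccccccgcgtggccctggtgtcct
Acly promoter: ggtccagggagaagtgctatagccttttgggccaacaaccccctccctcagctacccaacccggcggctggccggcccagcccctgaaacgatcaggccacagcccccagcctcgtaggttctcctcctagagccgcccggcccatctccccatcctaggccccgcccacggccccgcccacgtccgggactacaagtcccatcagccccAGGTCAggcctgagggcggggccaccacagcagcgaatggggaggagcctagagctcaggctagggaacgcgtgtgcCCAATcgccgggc

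The motifs were AGGTCA (the nuclear receptor core), that core repeated directly with 1 base between, TTGCGCAA and TTGCNNAA (C/EBP), CACGTG (the E-box, bound by ChREBP and SREBP relatives), TCACNCCAC (a sterol response element) and CCAAT (bound by NF-Y). Fasn held 3 matches to CCAAT, of which the pair nearest its start overlap each other, and no match to the others. Acly held 1 match to AGGTCA and 1 to CCAAT. The Acaca entry held no match to any of them. Its share of G and C letters was 39.7%, at percentile 9.48 of all promoters. The gene spans 272017 bp, and whether the entry lies at a start used in these cells was not examined. Among 32851 promoters of this length, 37.4% held CCAAT, 16.3% AGGTCA, 10.8% TTGCNNAA, 7.15% CACGTG, 1.24% TCACNCCAC, 0.183% TTGCGCAA and 0.0396% the direct repeat. These matches are descriptions of letters and say nothing about binding in these cells.

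The windows were dense in peaks of both factors. PPARγ peaks numbered 21 in the Scd1-Scd2 window, 9 in the Fasn window, 7 in the Acly window and 7 in the Acaca window. Per 100 kb, that is 10.0, 8.18, 5.38 and 1.94 PPARγ peaks, against 1.19 over the span of all listed peaks. C/EBPα peaks numbered 22, 9, 3 and 7 in the same order of windows, or 8.18 per 100 kb in the Fasn window, 2.31 in the Acly window and 1.94 in the Acaca window, again against 1.19. The Scd1-Scd2 and Fasn windows were thus the densest for both factors, and the Acaca window, the widest at 360 kb, lay nearest the genome average. That average runs along whole chromosomes, whereas the windows were set around genes with earlier results known. Other gene windows were not counted, so the density is not shown to be particular to these loci.

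Sites of both factors often coincided. Of the 44 PPARγ peaks, 22 (50%, exact 95% interval 34.6 to 65.4) had at least 1 bp in common with a C/EBPα peak, against 36.1% of all PPARγ peaks. The same 22 sites made up 53.7% of the 41 C/EBPα peaks (37.4 to 69.3), against 36.2% of all. They divided as 12 in the Scd1-Scd2 window, 5 in the Fasn window, 4 in the Acaca window and 1 in the Acly window. The centres of a shared pair lay between 3 and 134 bp apart, with a median of 35.5 bp, against 41.0 bp over all shared peaks. Neighbouring peaks of a list are not independent, so these intervals cover counting only.

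Member peaks also stood above the middle of their list. The height of a peak was taken over both treatments as the mean signal of its own factor, in tags scaled to a common library size, called units below. The median height was 14.7 units at the PPARγ members and 11.6 at all PPARγ peaks, and 20.6 at the C/EBPα members and 16.1 at all C/EBPα peaks. Above the list median were 31 of 44 PPARγ members and 29 of 41 C/EBPα members, and in the highest decile were 7 and 10. Shared PPARγ members had a median height of 22.2 units and unshared ones 12.1, and over the whole list too the shared peaks were the higher ones.

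Depth limits what single peaks can show. If the values are scaled to 10 M (1 M is 1e6) tags, as their steps allow but no header states, the libraries held 11.4 and 12.0 M tags for PPARγ in DMSO and rosiglitazone, 4.53 and 7.85 for C/EBPα, 2.86 and 1.31 for MED1, and 4.52 and 1.65 for CBP. The median PPARγ member held 13 and 23 PPARγ tags, 6 and 3 MED1 tags and 4.5 and 2 CBP tags. Ratios below are of rosiglitazone to DMSO in units. Their brackets are exact 95% intervals from the tags and cover counting error alone, without the spread among cultures.

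Summed over the 4 windows, the PPARγ peaks held more PPARγ, MED1 and CBP signal after rosiglitazone. PPARγ went from 816 to 1418 units, a ratio of 1.74 (1.60 to 1.88), where all PPARγ peaks gave 1.53 (1.52 to 1.53). MED1 went from 2268 to 3061 units, a ratio of 1.35 (1.19 to 1.53), which lies below the 1.63 of all PPARγ peaks (1.61 to 1.64). CBP went from 844 to 1237 units, a ratio of 1.47 (1.23 to 1.74), against 1.38 over all. C/EBPα at the C/EBPα members went from 1630 to 1783 units, a ratio of 1.09 (1.00 to 1.20), against 1.01. Divided by the ratio of all peaks, PPARγ was 1.14 and MED1 0.830 (0.731 to 0.942), so the direction for MED1 depends on the scale. Without the highest-scoring peak of each window the MED1 ratio was 1.13 (0.976 to 1.32). The PPARγ ratio was then 1.61 (1.47 to 1.77), an interval that contains the 1.53 of all PPARγ peaks.

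**Figure D1:**
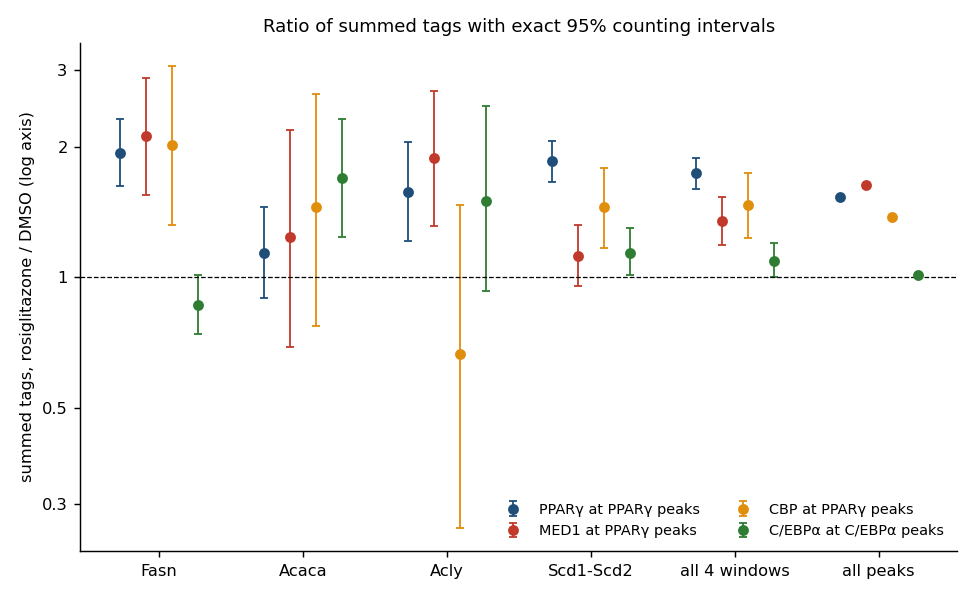
Ratio of summed tags, rosiglitazone over DMSO, on a log axis, for each window, all 4 windows and all peaks of the list. Points are ratios, bars exact 95% counting intervals with no replicates, and the dashed line marks 1; the intervals of both PPARγ and MED1 lie above 1 in the Fasn and Acly windows, while in the Scd1-Scd2 window MED1 (1.12) lies below PPARγ (1.85).

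The windows did not move alike. The PPARγ ratio was 1.93 in the Fasn window (1.62 to 2.31), 1.85 in the Scd1-Scd2 window (1.66 to 2.06), 1.57 in the Acly window (1.21 to 2.05) and 1.14 in the Acaca window (0.894 to 1.45). The Fasn and Scd1-Scd2 intervals lie above the 1.53 of all peaks, the Acly interval contains it and the Acaca interval lies below it. Without the highest-scoring peak all 4 intervals contain 1.53, at 1.80 for Fasn (1.42 to 2.30), 1.64 for Scd1-Scd2 (1.46 to 1.85), 1.44 for Acly (1.02 to 2.05) and 1.37 for Acaca (1.05 to 1.81). Their order is not resolved between Fasn, Scd1-Scd2 and Acly, whose intervals overlap. MED1 gave 2.12 (1.55 to 2.88), 1.12 (0.955 to 1.32), 1.88 (1.31 to 2.69) and 1.24 (0.691 to 2.18) in the same order. CBP gave 2.02 (1.32 to 3.07), 1.45 (1.17 to 1.79), 0.665 (0.265 to 1.47) and 1.45 (0.772 to 2.65). Peaks away from the window ends gave other values in places, with PPARγ at 1.84 in the Acaca window and MED1 at 2.33 in the Scd1-Scd2 window. Divided by the ratio of all peaks, 3 of these ratios turned below 1, PPARγ in the Acaca window (0.746, 0.586 to 0.950), MED1 in the Scd1-Scd2 window (0.691, 0.587 to 0.812) and MED1 in the Acaca window (0.764, 0.425 to 1.34).

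Single peaks were counted against the background of the lists. PPARγ was at least 2-fold higher, on the log2(value + 1) scale, at 17 of 44 PPARγ members (38.6%) and at 30.0% of all PPARγ peaks, and at least 2-fold lower at 2 members, where the background was 4.43%. Centred on the median of the list, the members higher in PPARγ numbered 9, against a background of 15.6%. MED1 was at least 2-fold higher at 10 members (background 29.8%) and lower at 12 (background 22.5%). CBP was higher at 10 (background 23.6%) and lower at 8 (background 25.1%). C/EBPα at the same peaks was higher at 11 (background 24.5%) and lower at 6 (background 18.7%). At the 41 C/EBPα members, C/EBPα was higher at 9 (background 15.9%) and lower at 3 (background 9.25%). Many of these peaks hold few coactivator tags: 16 members had at least 20 MED1 tags over both treatments and 11 had as many CBP tags, which the next counts cover. MED1 was higher at 4 of 16 (25.0%, background 45.1%) and lower at 4 (25.0%, background 8.14%). CBP was higher at 3 of 11 (27.3%, background 22.7%) and lower at 1 (9.09%, background 5.70%).

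**Figure D2:**
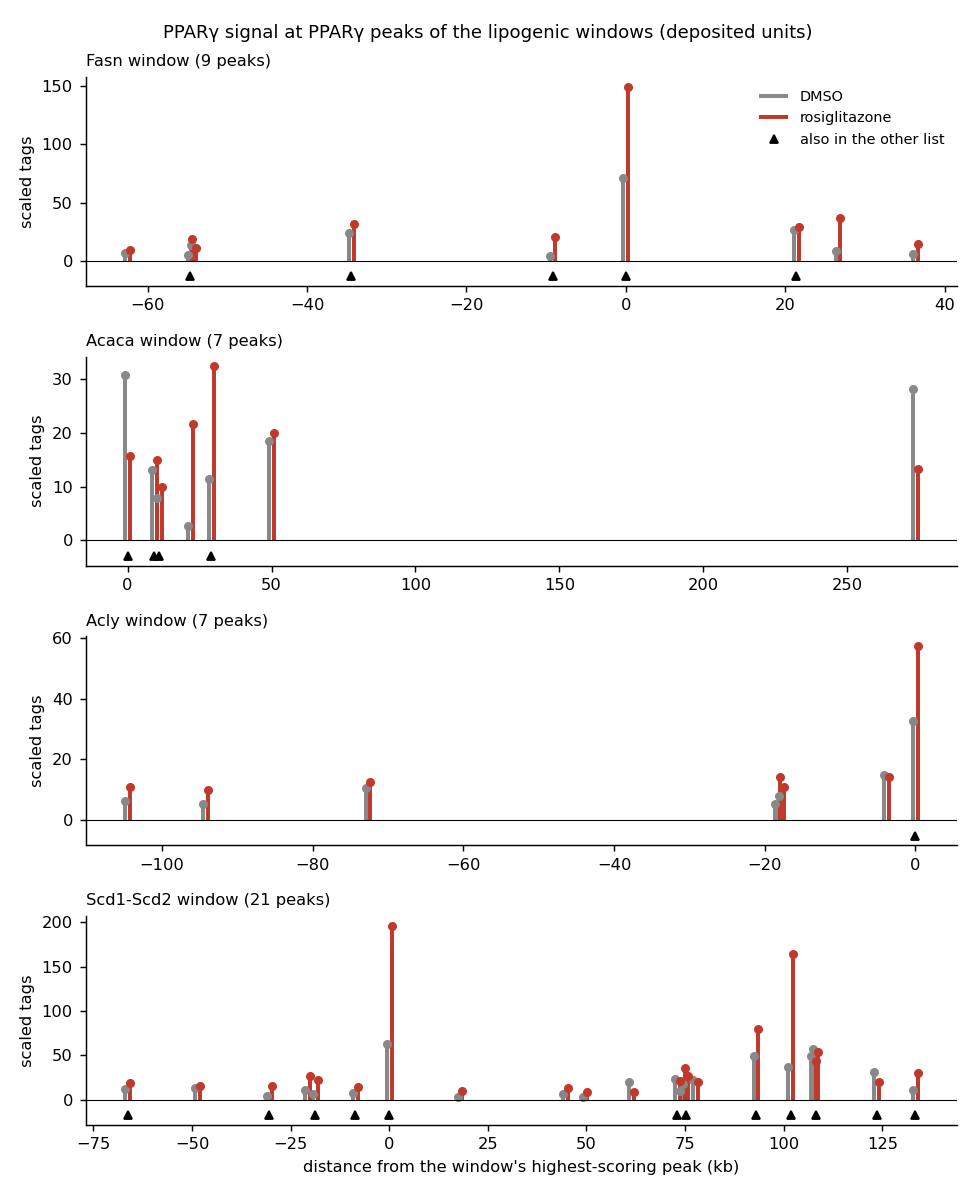
PPARγ signal in deposited units (scaled tags) at each PPARγ peak, DMSO in grey and rosiglitazone in red, 1 library each; the horizontal axis is the distance in kb from the highest-scoring PPARγ peak of the window, and triangles mark peaks that overlap a C/EBPα peak. A single tall peak leads the Fasn and the Acly window, whereas the Scd1-Scd2 window has tall peaks in separate places and the Acaca window has peaks that differ in opposite directions.

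The Acly window had 1 strong site. Its highest PPARγ peak, chr11:100406773-100406959, held 32.5 PPARγ units with DMSO and 57.4 with rosiglitazone (ratio 1.76, 1.17 to 2.70), and was the only 1 of 7 shared with C/EBPα. It carried 44.2% of the window's PPARγ tags in rosiglitazone (exact 95% interval 36.3 to 52.4). MED1 there went from 115 to 268 units, a ratio of 2.32 (1.40 to 3.86), while CBP went from 39.8 to 24.3 units, on 18 and 4 tags, a ratio of 0.610 (0.150 to 1.85). The overlapping C/EBPα peak, chr11:100406744-100406974, held 44.2 and 31.8 units of C/EBPα, a ratio of 0.721 (0.385 to 1.37). PPARγ and MED1 were thus higher at this site, and for C/EBPα and CBP the intervals include 1. Against PPARγ peaks with at least 20 tags of the protein, the log2 ratios stood at percentile 62.2 for PPARγ and 64.4 for MED1.

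The other 6 Acly peaks were weaker, between 5.28 and 14.9 units of PPARγ in DMSO. Next by score came chr11:100402975-100403161, with 14.9 and 14.1 units of PPARγ, and chr11:100334108-100334294, with 10.6 and 12.5. Both intervals include 1 (0.945, 0.454 to 1.97, and 1.18, 0.516 to 2.77). The remaining C/EBPα peaks of the window, both away from PPARγ peaks, were nearly empty in DMSO. At chr11:100414252-100414482 C/EBPα went from 6.62 to 29.3 units, on 3 and 23 tags, a ratio of 4.42 (1.34 to 23.0) and the highest among C/EBPα members with at least 20 tags. At chr11:100390221-100390451 it went from 4.42 to 21.6 units, on 2 and 17 tags, a ratio of 4.90 (1.16 to 43.8). The window's C/EBPα ratio was 1.50 (0.932 to 2.48) with the shared site and 4.61 (1.82 to 15.0) without it. With 3 and 2 DMSO tags, these peaks may be listed only through the rosiglitazone library, the deeper of the C/EBPα libraries. A high ratio would then follow from the listing, so the 4.42, 4.90 and 4.61 are descriptions. Which libraries a peak was called from was not examined.

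The Acaca window held moderate peaks that went in both directions. By score the first was chr11:83982522-83982708, where PPARγ was 30.8 units with DMSO and 15.8 with rosiglitazone (ratio 0.513, 0.277 to 0.922). Of all PPARγ peaks with at least 20 tags, 4.98% had a lower log2 ratio. An isolated peak 53112 bp from the nearest C/EBPα peak, chr11:84256123-84256309, went the same way with 28.1 and 13.3 units, a ratio of 0.473 (0.242 to 0.887), which ties with 1 Scd1-Scd2 peak as the lowest among PPARγ members with at least 20 PPARγ tags. In contrast, chr11:84004462-84004648 went from 2.64 to 21.6 units, on 3 and 26 tags, a ratio of 8.19 (2.51 to 42.3), the highest of those members. With 3 DMSO tags this peak, too, may be listed only through the rosiglitazone library. Both kinds of peak therefore lay within 1 window, and their sum differed little.

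The strongest C/EBPα site of the Acaca window was shared with PPARγ. At the C/EBPα peak chr11:84011565-84011795 C/EBPα went from 35.3 to 115 units, on 16 and 90 tags, a ratio of 3.24 (1.89 to 5.92). Its log2 ratio stood at percentile 95.7 of the C/EBPα peaks with at least 20 tags. At the overlapping PPARγ peak, chr11:84011639-84011825, PPARγ went from 11.4 to 32.4 units, a ratio of 2.84 (1.48 to 5.79). MED1 at that peak was 90.9 and 76.5 units (0.842, 0.362 to 1.81) and CBP 57.5 and 60.6 (1.06, 0.454 to 2.26). Among the 44 PPARγ members it was the only 1 where the intervals of both PPARγ and C/EBPα, counted in the PPARγ peak, lay above 1, while those of both coactivators included 1.

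Further shared Acaca sites were lower. At chr11:83991835-83992021 PPARγ was 13.2 and 15.0 units (1.13, 0.540 to 2.42) with no MED1 or CBP tag in either treatment, while the overlapping C/EBPα peak, chr11:83991805-83992035, had 8.83 and 28.0 units of C/EBPα, a ratio of 3.17 (1.08 to 12.7). The C/EBPα peak at the first-ranked PPARγ site, chr11:83982434-83982664, had 8.83 and 25.5 units, a ratio of 2.88 (0.966 to 11.6), so C/EBPα and PPARγ values went in opposite directions there. At chr11:83993600-83993786 PPARγ was 7.91 and 9.98 units and MED1 6.99 and 53.6, on 2 and 7 tags (7.66, 1.46 to 75.6). Unshared, and the third by score, chr11:84032562-84032748 had 18.5 and 19.9 units of PPARγ (1.08, 0.576 to 2.04). Summed over the window's C/EBPα peaks the C/EBPα ratio was 1.69 (1.24 to 2.32), but 1.08 (0.732 to 1.62) without the strongest.

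The Fasn window was led by 1 very high site shared by both factors. The PPARγ peak chr11:120692122-120692308 ranked 209th of 30588 by the authors' score and the C/EBPα peak chr11:120692064-120692294 ranked 79th of 30519. PPARγ there went from 71.2 to 150 units, a ratio of 2.10 (1.61 to 2.77). MED1 went from 178 to 306 units, a ratio of 1.72 (1.11 to 2.65). CBP went from 42.0 to 127 units, a ratio of 3.03 (1.55 to 5.96), the highest CBP ratio among PPARγ members with at least 20 CBP tags. C/EBPα, counted in its own peak, went the other way, from 336 to 215 units, a ratio of 0.641 (0.512 to 0.804). At this site 3 of the 4 proteins were therefore higher with rosiglitazone and C/EBPα was lower. Against PPARγ peaks with at least 20 tags of the protein, the log2 ratios stood at percentile 71.6 for PPARγ, 44.1 for MED1 and 93.4 for CBP. The MED1 difference was thus near the middle of the list.

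The other shared Fasn sites differed in which protein was higher. At chr11:120657674-120657860 PPARγ was 23.7 and 31.6 units (1.33, 0.791 to 2.27), but MED1 went from 62.9 to 230 units, a ratio of 3.65 (1.97 to 6.95) and the highest among PPARγ members with at least 20 MED1 tags. The C/EBPα peak there, chr11:120657687-120657917, had 144 and 112 units of C/EBPα (0.781, 0.560 to 1.09). At chr11:120682959-120683145 PPARγ went from 4.40 to 19.9 units, a ratio of 4.54 (1.70 to 15.2), and C/EBPα in its peak, chr11:120682988-120683218, from 35.3 to 72.6 units, a ratio of 2.05 (1.16 to 3.83). MED1 at that PPARγ peak was at 1 tag in each treatment. Of these sites, MED1 alone had an interval above 1 at the first. At the second, PPARγ had, and so had C/EBPα in its own peak. Counted in the PPARγ peak there, C/EBPα gave 1.39 (0.773 to 2.61).

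Of the remaining Fasn peaks, chr11:120713507-120713693 was the second by score, with 26.4 and 29.1 units of PPARγ (1.10, 0.658 to 1.86). MED1 at this shared site was at 7 tags in DMSO and 0 in rosiglitazone, whose interval has an upper bound of 1.52. A weaker shared site, chr11:120637454-120637640, went from 5.28 to 18.3 units of PPARγ, a ratio of 3.47 (1.36 to 10.5), with MED1 from 24.5 to 76.5 units (3.13, 1.07 to 9.68). Unshared, chr11:120718745-120718931 went from 7.91 to 36.6 units of PPARγ, on 9 and 44 tags, a ratio of 4.62 (2.23 to 10.8), and held no CBP tag. Over the window PPARγ values were higher, by any amount, at 8 of 9 peaks, where the background of all PPARγ peaks was 70.5%. Without the leading C/EBPα peak the window's C/EBPα ratio was 1.14 (0.913 to 1.43), against 0.863 (0.739 to 1.01) with it.

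The Scd1-Scd2 window was the richest, with 3 very high PPARγ peaks. In the RefSeq gene order of GRCm38.p6, Scd3 lies before Scd2, Scd4 between Scd2 and Scd1, and Wnt8b after Scd1. The highest, chr19:44388972-44389158, ranked 157th of all PPARγ peaks by score and went from 62.4 to 196 units of PPARγ, a ratio of 3.14 (2.40 to 4.16). MED1 there went from 129 to 398 units, a ratio of 3.08 (1.98 to 4.83), and CBP from 86.2 to 127 (1.48, 0.826 to 2.57). Its C/EBPα peak, chr19:44388853-44389083, had 42.0 and 63.7 units of C/EBPα (1.52, 0.879 to 2.73). The PPARγ and MED1 ratios were close when counted in the PPARγ peak, but in the overlapping C/EBPα peak MED1 gave 1.69 (1.05 to 2.71) and PPARγ 3.70 (2.68 to 5.20).

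The next site by PPARγ score was the main C/EBPα site of the window. At chr19:44490771-44490957 PPARγ went from 36.9 to 164 units, a ratio of 4.43 (3.16 to 6.34), and MED1 from 196 to 344, a ratio of 1.76 (1.16 to 2.65). The log2 ratios stood at percentiles 93.6 and 45.3 of PPARγ peaks with at least 20 tags of the protein. CBP there was 64.1 units with DMSO and 24.3 with rosiglitazone, on 29 and 4 tags (0.378, 0.0967 to 1.08), the lowest CBP ratio among PPARγ members with at least 20 CBP tags. C/EBPα in its peak, chr19:44490733-44490963, was 174 and 222 units (1.27, 0.968 to 1.68) and ranked 157th of the C/EBPα list. The third, chr19:44481963-44482149, had 49.2 and 79.8 units of PPARγ (1.62, 1.15 to 2.30) and 269 and 214 of MED1 (0.796, 0.497 to 1.24). With DMSO this peak held the most MED1 of all 44 PPARγ members.

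**Figure D3:**
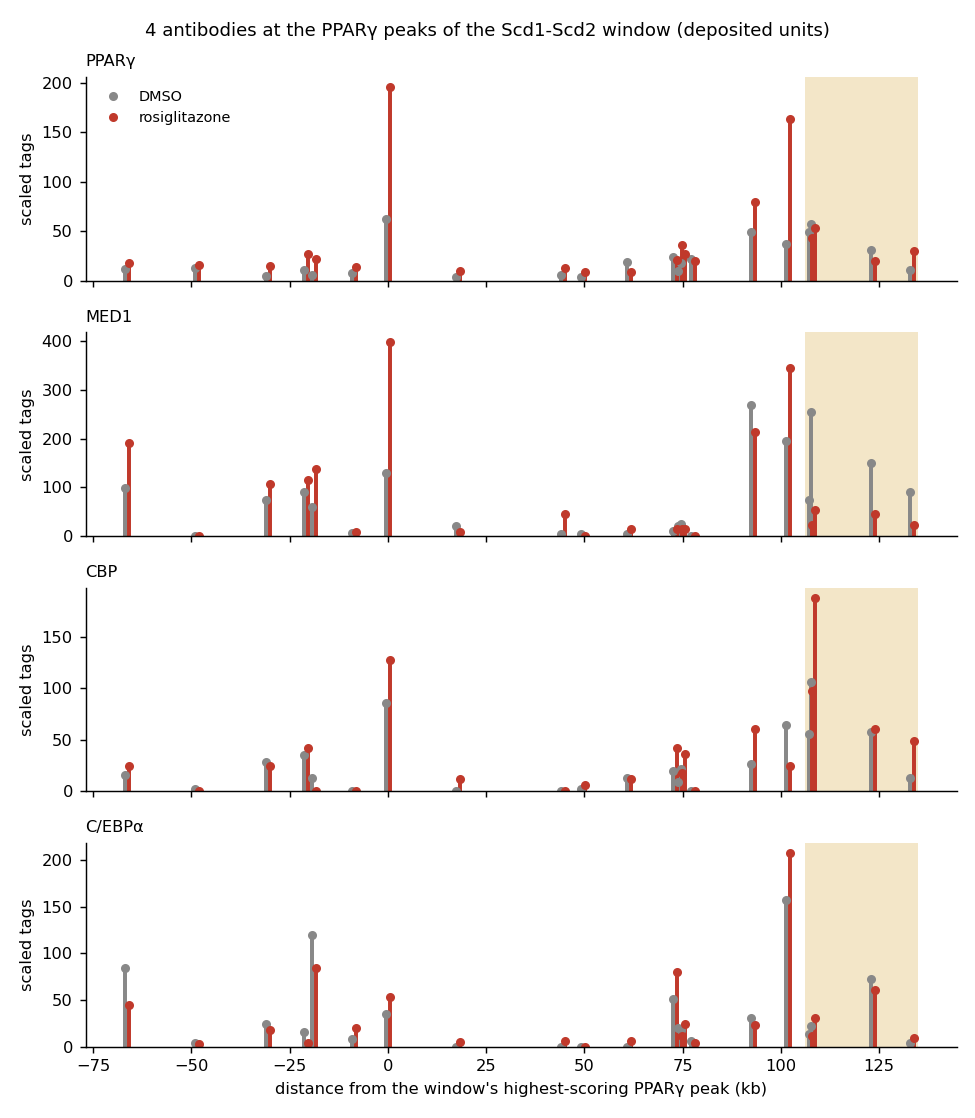
Deposited units (scaled tags) of PPARγ, MED1, CBP and C/EBPα at the 21 PPARγ peaks of the Scd1-Scd2 window, DMSO in grey and rosiglitazone in red, 1 library each, against the distance in kb from the highest-scoring peak. In the shaded stretch, chosen after the values were seen, MED1 is lower with rosiglitazone at all 4 peaks (570 to 145 units in sum) and CBP is higher in sum (232 to 394).

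MED1 was lower at the high-coordinate end of this window. At its last 4 PPARγ peaks, which span 26.0 kb from 44496539 to 44522544, MED1 went from 570 to 145 units, on 163 and 19 tags, a ratio of 0.255 (0.150 to 0.412). CBP at the same peaks went from 232 to 394 units, a ratio of 1.70 (1.23 to 2.34). PPARγ was 148 and 146 units (0.990, 0.797 to 1.23), and C/EBPα 113 and 112 (0.995, 0.697 to 1.43). Summed over the 17 other PPARγ peaks, MED1 went from 1010 to 1630 units (1.61, 1.35 to 1.93), near the 1.63 of all PPARγ peaks. PPARγ there went from 308 to 695 units (2.26, 1.99 to 2.57). Over all 21 peaks of the window, MED1 values were higher at 10, lower at 9 and unchanged at 2. This stretch was chosen after the values had been seen, so it is a description without a test.

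Each of the 4 peaks showed the MED1 difference. At chr19:44497090-44497276, the strongest, MED1 went from 255 to 53.6 units, on 73 and 7 tags (0.210, 0.0816 to 0.455), the lowest MED1 ratio among PPARγ members with at least 20 MED1 tags, while CBP went from 106 to 188 units (1.77, 1.09 to 2.84) and PPARγ was 57.2 and 53.2. At chr19:44512539-44512725 MED1 went from 150 to 45.9 units (0.306, 0.106 to 0.721), and at chr19:44522358-44522544 from 90.9 to 23.0 (0.253, 0.0489 to 0.824). The unshared peak chr19:44496539-44496725 had 73.4 and 23.0 units (0.313, 0.0597 to 1.05). Among all 4274 PPARγ peaks with at least 20 MED1 tags, 348 (8.14%) had MED1 at least 2-fold lower. Of those 348, 256 (5.99% of the 4274) also had a higher CBP value, by any amount. A higher CBP value was common in the list as a whole. Of the 3318 PPARγ peaks with at least 20 tags of both PPARγ and CBP, 49.9% had both higher. A further 22.2% had CBP higher with PPARγ lower. Whether lower MED1 goes with higher CBP was not tested. The 16 members with at least 20 MED1 tags included 4 peaks with MED1 at least 2-fold lower and CBP higher, all of them here. CBP values were higher at all 4, but the interval lay above 1 at 2 of them, 44497090 and 44522358 (3.66, 1.11 to 12.8). At 44496539 the CBP ratio was 1.76 (0.876 to 3.42), and at 44512539 CBP was 57.5 and 60.6 units (1.06, 0.454 to 2.26), or 0.831 (0.366 to 1.73) in the overlapping C/EBPα peak. The rosiglitazone libraries of MED1 and CBP are the shallow ones, and the part of depth in this contrast was not tested.

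The PPARγ values at these 4 peaks were not alike. At chr19:44522358-44522544 PPARγ went from 10.6 to 29.9 units (2.84, 1.44 to 5.99) although MED1 was lower. At chr19:44512539-44512725 it was 30.8 and 19.9 units (0.648, 0.369 to 1.12), and the shared C/EBPα peak, chr19:44512554-44512784, held 86.1 and 91.7 units of C/EBPα (1.06, 0.712 to 1.62). Lower MED1 was thus seen both at a peak with higher PPARγ and at peaks whose PPARγ interval includes 1. Leaving out each of the 4 peaks in turn gave MED1 ratios from 0.237 to 0.292 and CBP ratios from 1.58 to 1.91. Because the peaks were chosen with their values seen, the MED1 ratios were bound to stay low. These ratios are no separate check.

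Elsewhere in the window, PPARγ and C/EBPα were compared at further shared sites. The C/EBPα peak chr19:44370329-44370559 held 128 and 113 units of C/EBPα (0.885, 0.629 to 1.25), while the overlapping PPARγ peak, chr19:44370274-44370460, went from 6.16 to 21.6 units of PPARγ (3.51, 1.48 to 9.58) with MED1 from 59.4 to 138 (2.32, 1.13 to 4.79). At chr19:44322618-44322848 C/EBPα went from 92.7 to 48.4 units (0.522, 0.327 to 0.829), the lowest ratio among C/EBPα members with at least 20 tags, whereas MED1 in the PPARγ peak there, chr19:44322623-44322809, went from 97.8 to 191 (1.96, 1.09 to 3.48). At chr19:44461932-44462162 C/EBPα went from 55.2 to 90.4 units (1.64, 1.03 to 2.70), with 23.7 and 20.8 units of PPARγ in the overlapping PPARγ peak. The PPARγ ratio was 0.875 (0.487 to 1.57) at that last site, and at chr19:44322623-44322809 it was 1.60 (0.771 to 3.46). Counted each in its own peak, 1 factor had an interval that excluded 1 at each of these sites, and the other did not. In the PPARγ peak chr19:44461948-44462134, however, C/EBPα gave 1.58 (0.966 to 2.67), so there both intervals included 1.

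The other shared Scd1-Scd2 sites had fewer tags. At chr19:44358573-44358759 PPARγ went from 4.40 to 15.0 units (3.40, 1.22 to 11.7). At chr19:44380333-44380519 it was 7.91 and 14.1 units (1.79, 0.753 to 4.55), and at chr19:44464142-44464328 17.6 and 26.6 (1.51, 0.839 to 2.79). Unshared, chr19:44463267-44463453 went from 9.67 to 35.8 units of PPARγ (3.70, 1.87 to 7.95), and chr19:44450323-44450509 went from 19.4 to 9.15 (0.473, 0.207 to 1.02), tied for the lowest ratio among PPARγ members with at least 20 tags. PPARγ values were higher at 15 of the 21 peaks of the window, which is near the 70.5% of all PPARγ peaks.

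**Figure D4:**
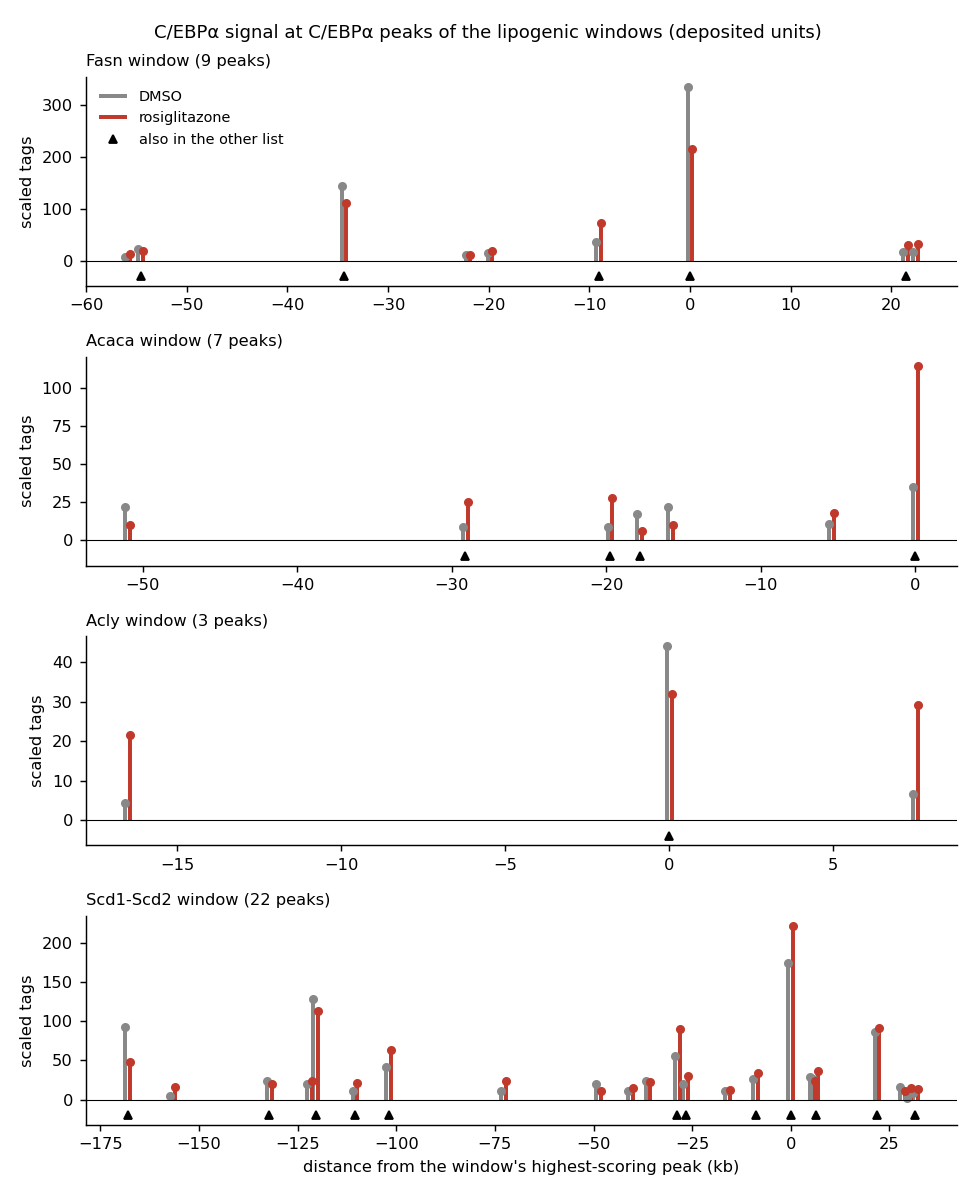
C/EBPα signal in deposited units (scaled tags) at each C/EBPα peak, DMSO in grey and rosiglitazone in red, 1 library each, against the distance in kb from the highest-scoring C/EBPα peak of the window; triangles mark peaks that overlap a PPARγ peak. The leading Fasn peak is lower with rosiglitazone (336 to 215 units), while the leading Acaca peak is higher (35.3 to 115).

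Shared and unshared sites were compared within the windows. PPARγ at shared PPARγ members had a ratio of 1.90 (1.73 to 2.10) and at unshared ones 1.40 (1.21 to 1.63), against 1.63 and 1.44 over the whole list. MED1 gave 1.37 (1.19 to 1.58) and 1.24 (0.898 to 1.70), and CBP 1.49 (1.22 to 1.80) and 1.37 (0.899 to 2.06), so the intervals of the classes overlapped for both coactivators. C/EBPα at shared C/EBPα members was 1.06 (0.958 to 1.17) and at unshared ones 1.28 (1.03 to 1.61). Over the whole lists, shared and unshared peaks gave 1.61 and 1.64 for MED1, 1.36 and 1.41 for CBP, and 0.994 and 1.03 for C/EBPα. The MED1 interval of the shared members lay below the 1.61 of all shared peaks. Among the 16 members with at least 20 tags of both PPARγ and MED1, the values of both were higher at 10 (62.5%) and lower at 3 (18.8%), and PPARγ was higher with MED1 lower at 3. Over all 4136 such PPARγ peaks the shares were 76.0%, 5.22% and 14.1%. The 3 members with both lower all lie in the Scd1-Scd2 stretch that was chosen after its values were seen. So does chr19:44522358-44522544, where PPARγ was higher with MED1 lower. The member shares with lower MED1 thus largely recount that stretch and are no separate finding. Of 11 members with at least 20 tags of both PPARγ and CBP, 6 had both higher (54.5%). In 2, PPARγ was higher with CBP lower, and in 3 the reverse held (18.2% and 27.3%). Over all 3318 such peaks the shares were 49.9%, 19.2% and 22.2%.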

How the data were processed

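Both deposited lists give peak positions and 8 columns of normalised tag signal as made by the authors, 1 for each of the 4 antibodies and each treatment. The tools Bowtie, edgeR, FastQC and HOMER and the build mm9 are named per the submitters' processing notes, and their versions were not given in the sources used here. The authors also deposited a score per peak, used to rank peaks within a list, and a fraction per peak, not reported here. No replicate is named for PPARγ, and each of its columns was treated as 1 library, and the MED1 column headed BRL, a code of rosiglitazone, as the MED1 rosiglitazone sample. RNA polymerase II and input samples were not analysed here.

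All values were whole multiples of a step per column (100% of values above 0 within 0.02 steps), so tags per peak were recovered. Without replicates no count model was fitted. Ratios of tags carry exact Clopper-Pearson 95% intervals. Their code was run on simulated tags with counting error alone, which does not test the spread among cultures. Per-peak folds used log2(value + 1). Tags carry no molecular identifiers. Peaks were shared at 1 bp or more in common. Scripts ran in Python 3.11.15 with numpy 2.4.6, pandas 2.3.3 and scipy 1.17.1.

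Named peaks were the 3 highest scores per window and list, all PPARγ peaks shared with C/EBPα, and the extremes of ratio among peaks with at least 20 tags over both treatments; other peaks named were chosen after their values were seen. The windows, motifs and rules were chosen with earlier results of these data known.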

Additional observations from a re-analysis of the deposited data

How the results depend on the processing

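No paired analysis was possible because each factor has 1 column per treatment and the columns carry no replicate number; for the same reason no replicate could be left out. Of 80 alternative ratios of the windows, 56 stayed within the interval of the reported one. Divided by the ratio of all peaks of the list, PPARγ was 1.27 in the Fasn window, 0.746 in Acaca, 1.03 in Acly, 1.21 in Scd1-Scd2 and 1.14 over all 4. MED1 was then 1.30 in Fasn, 1.16 in Acly, 0.691 in Scd1-Scd2 and 0.830 over all 4, and CBP 1.05 in Scd1-Scd2 and 1.06 over all 4. The scaling itself turned the direction for PPARγ in Acaca and for MED1 in Acaca (0.764), in Scd1-Scd2 and over all 4. Without the highest-scoring peak, PPARγ was 1.64 in Scd1-Scd2, MED1 0.950 there and 1.13 over all 4, and C/EBPα 1.14 in Fasn, 1.08 in Acaca and 4.61 in Acly. With 0.25 of each window's length left out at each end, PPARγ was 1.84 in Acaca and 1.96 over all 4, MED1 2.33 in Scd1-Scd2 and 1.99 over all 4, and C/EBPα 4.90 in Acly and 1.43 in Scd1-Scd2. With scores at or above the list median, C/EBPα was 2.90 in Acaca. These follow from which peaks are summed. Centred on the list median, members at least 2-fold different in PPARγ were 9 higher and 4 lower. With a pseudocount of 3, PPARγ was lower at 0 members, CBP at 5 and C/EBPα at 1. With at least 20 tags, MED1 was higher at 4 and lower at 4, CBP higher at 3 and lower at 1, and C/EBPα lower at 0. The 3 other definitions of a shared peak kept the count within 1.5 times of 22. The alternatives for the last 4 Scd1-Scd2 peaks were chosen after seeing the data. CBP and MED1 are limited by 1.65 and 1.31 M tags in rosiglitazone.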
